A study of Mus musculus with 86 samples.

Results

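The fibroblast growth factor (FGF) to ERK pathway genes Fgf4, Fgfr1, Fgfr2, Spry2, Spry4, Dusp6, Etv4, Etv5 and Il17rd were examined in mouse embryonic stem cells. All called ChIP-seq intervals of SOX2 and CTCF that lay within 50 kb of the body of any of these 9 genes were taken, on the mouse build mm10 (GRCm38). This gave 551 of the 327957 intervals in the 8 peak lists. The cells were of strain 129S5/SvEvBrd and grew on gelatin with 15% fetal bovine serum and 10 ng/ml leukemia inhibitory factor (LIF), a cytokine that keeps stem cells from differentiating. Mitotic cells had been held in 100 ng/ml nocodazole, a microtubule poison, for 6 h and collected by shaking them off the dish. Asynchronous cells were untreated cultures that are mostly in interphase. The drug and the cell cycle stage cannot be told apart in this design. Each condition had 2 SOX2 libraries (antibody AF2018) and 2 CTCF libraries (antibody ab70303), and the other libraries among the 86 of the series, of histone marks and inputs, were not analysed here. Whether the replicates are separate cultures is not stated in the labels, and their spread, and so every p-value, may reflect technical variation alone.

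Embryonic stem cells secrete FGF4, which signals through FGF receptors, RAS and the kinase ERK, and this signal pushes the cells out of self-renewal and towards differentiation. ERK activity switches on ETS transcription factors such as ETV4 and ETV5, and it also switches on its own inhibitors, among them the Sprouty proteins, the ERK phosphatase DUSP6 and the membrane protein IL17RD (also called SEF). SOX2, a DNA-binding HMG-box protein, helps to keep stem cells pluripotent and is a known activator of Fgf4. CTCF is a zinc finger protein that marks insulators and the anchors of chromatin loops. Most transcription stops in mitosis, and the comparison of mitotic with asynchronous cells asks which sites of a factor are still detected on mitotic chromosomes.

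The promoters of 6 of the 9 genes could be matched to 7 starts of transcription in the RefSeq table for GRCm38.p6. Of these windows of 250 bases before a start, all 7 were touched by an interval of asynchronous SOX2 replicate 1, against 33.6% of all 32851 windows. Asynchronous SOX2 replicate 2 touched all but those of Fgf4 and Spry2, against 22.3% of all windows. Of the 7, 3 are shown. Etv5 is shown for its second start, the only window that holds a mitotic SOX2 summit, Dusp6 because the summits of both asynchronous libraries lie in the window while the mitotic ones lie outside it, and Spry2 for the only SOX motif found. In Etv5 the capitals mark the 21 bases centred on the SOX2 summit of mitotic replicate 1 (chr16:22438369-22438618, minus strand, before the second, inner start of the gene). In Dusp6 they mark the 21 bases around a SOX2 summit of asynchronous replicate 1 and, nearer the start, around that of asynchronous replicate 2 (chr10:99262981-99263230, plus strand). In Spry2 they mark the only match to the SOX core ACAANG, read on the opposite strand (chr14:105896820-105897069, minus strand).
Etv5, second start: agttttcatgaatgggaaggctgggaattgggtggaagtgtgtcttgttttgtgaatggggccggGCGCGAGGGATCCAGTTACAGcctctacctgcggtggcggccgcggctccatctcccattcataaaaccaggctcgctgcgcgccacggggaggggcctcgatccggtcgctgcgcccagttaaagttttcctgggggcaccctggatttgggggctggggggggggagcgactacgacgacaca
Dusp6: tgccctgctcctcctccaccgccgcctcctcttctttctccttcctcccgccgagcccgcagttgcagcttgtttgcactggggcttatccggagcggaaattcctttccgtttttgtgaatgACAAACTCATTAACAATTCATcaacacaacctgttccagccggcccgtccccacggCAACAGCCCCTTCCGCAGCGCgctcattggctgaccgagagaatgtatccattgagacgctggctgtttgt
Spry2: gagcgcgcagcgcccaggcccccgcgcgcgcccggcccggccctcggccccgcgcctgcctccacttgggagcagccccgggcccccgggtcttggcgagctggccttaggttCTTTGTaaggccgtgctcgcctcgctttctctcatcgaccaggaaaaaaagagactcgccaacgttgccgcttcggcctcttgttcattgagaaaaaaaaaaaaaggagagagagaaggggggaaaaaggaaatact
The SOX core was searched on both strands and occurs in 36.3% of 32851 such windows of the genome, so its presence in 1 of 7 member windows describes the sequence and nothing more. The CTCF core (8.36% of windows) and the OCT-SOX composite (1 window in all) had no match in the members' windows, and the motifs do not overlap there. The GC content of the 7 windows ran from 44% to 71.2%, against a median of 52.4% over all windows.

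Few SOX2 intervals were called near the FGF-ERK genes in mitotic cells, and those that were called sat where asynchronous cells had SOX2 too. The 2 mitotic SOX2 libraries had 15 and 4 intervals near the 9 genes, against 176 and 145 in the asynchronous libraries. The mean was 9.5 ± 7.78 in mitotic cells and 160.5 ± 21.9 in asynchronous cells (SD, n = 2 each), or 16.9-fold fewer in mitosis. The groups did not overlap, but with 2 libraries against 2 the two-sided exact permutation test cannot go below p = 0.333, the value it gave. The ratio of mitotic to asynchronous intervals was 0.0592, and it was 0.0249 with mitotic replicate 1 left out and 0.0935 with replicate 2 left out. Over the whole lists that ratio was 0.0155. None of the 15 and 4 mitotic intervals lacked an asynchronous SOX2 peak. The same count over the whole mitotic lists was not made, so this is not shown to be particular to these genes.

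Mitotic replicate 2 had the fewest intervals, and it was also a shallower library. A relative depth, the background coverage per 100 bp of fragment read from the lists themselves, was 2.62 and 1.64 in the mitotic SOX2 libraries and 2.48 and 1.61 in the asynchronous ones. For CTCF it was 3.62 and 3.77 in mitotic and 3.36 and 3.71 in asynchronous libraries. Its part in the difference between the mitotic replicates was not tested. Within each replicate number, the mitotic SOX2 library was as deep as the asynchronous one or slightly deeper. All 4 intervals of mitotic replicate 2 overlapped intervals of replicate 1, against 88.2% of its whole list. Of the 15 of replicate 1, 4 (26.7%) overlapped replicate 2, against 18.2% of its whole list. In asynchronous cells 66.5% of the 176 and 89.7% of the 145 SOX2 intervals near these genes overlapped the other replicate. Over the whole asynchronous lists it was 58.8% and 87.6%.

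**Figure D1:**
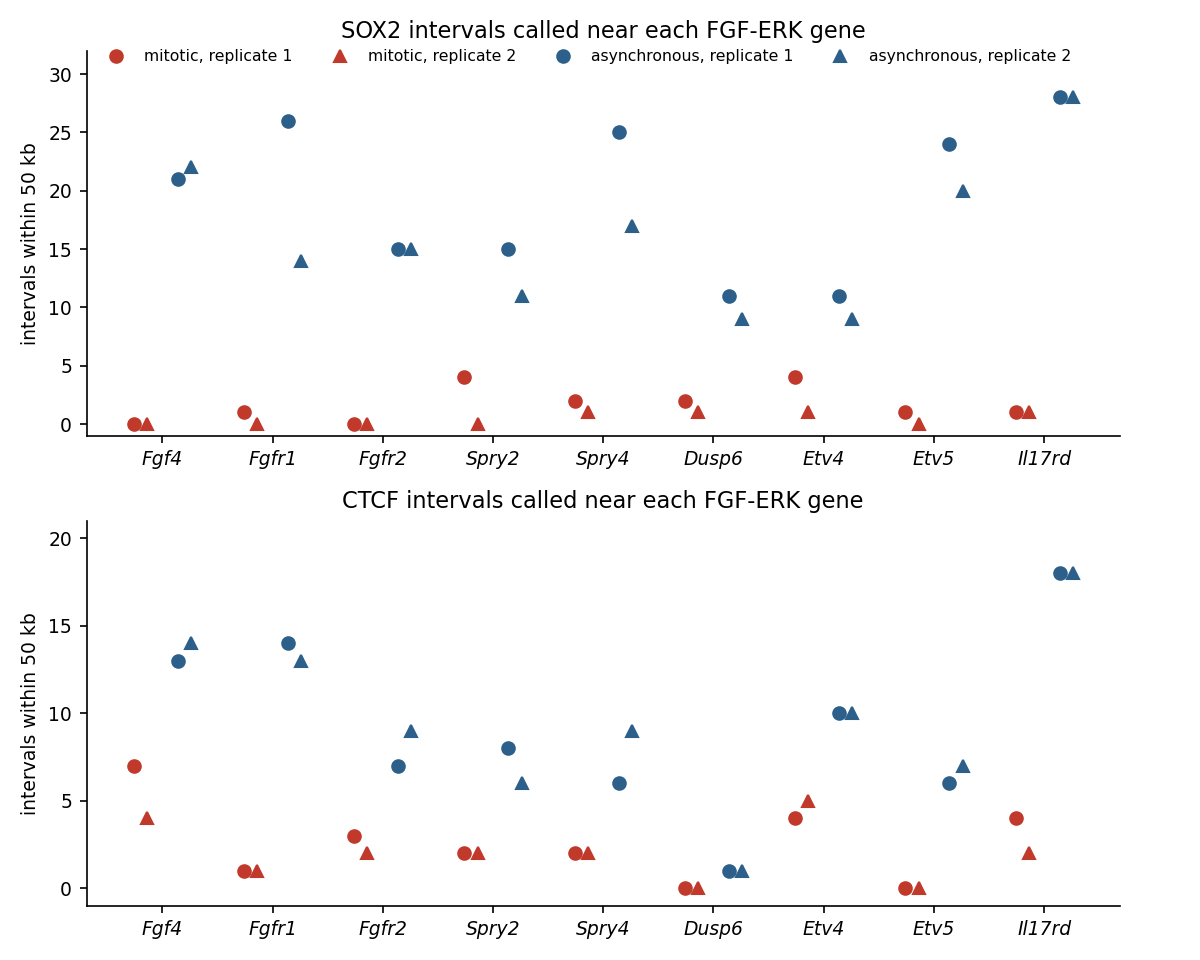
Number of SOX2 intervals (top) and CTCF intervals (bottom) called within 50 kb of each gene, with 1 point per library, mitotic in red and asynchronous in blue. Mitotic SOX2 points lie at 0 to 4, all below the asynchronous points of the same gene at 9 to 28, while the mitotic CTCF points of Fgf4 and Etv4 reach 7 and 5.

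To compare the same places in both conditions, overlapping asynchronous peaks were merged and regions with a peak in both asynchronous libraries were kept, 112 for SOX2 and 68 for CTCF near these genes. A region counted as called in a mitotic library when it shared at least 1 bp with a mitotic peak. Of the 112 SOX2 regions, mitotic replicate 1 called 11 (9.82%, 95% Wilson interval 5.57 to 16.7), where it called 3.37% of all SOX2 regions. Mitotic replicate 2 called 4 (3.57%, 1.40 to 8.82), where it called 0.755% of all. The same 4 regions were the only ones called in both, against 0.675% of all SOX2 regions. At least 1 mitotic library called 11, against 3.45% of all, and 101 of the 112 (90.2%) were called in neither. The mean share was 6.70% ± 4.42 (SD, n = 2), and leaving out mitotic replicate 1 or 2 gave 3.57% or 9.82%. The intervals cover counting error only, and neighbouring regions of a gene are not independent.

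The strength of a region was taken as the percentile of its deposited fold enrichment in each asynchronous list, averaged over both. Folds are the authors' values, and those of mitotic and asynchronous lists given side by side for a region do not measure a change between them. The 112 SOX2 regions had an ordinary median strength, at percentile 61.2 against 61.3 over all SOX2 regions. The 4 regions that both mitotic libraries called had a median of 97.0 (range 86.8 to 99.1), the 7 called in replicate 1 alone 87.4 (60.6 to 99.7), and the 101 called in neither 60.1 (3.93 to 98.2). The ranges overlap widely, so strong SOX2 regions near these genes went both ways. At the 90th percentile or above were 20 regions (17.9% of the 112), against 13.3% of all SOX2 regions. Of these 20, both mitotic libraries called 3, against 3.38% of all SOX2 regions of that strength. At least 1 library called 6 of the 20, against 9.27%, and 14 were called in neither.

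**Figure D2:**
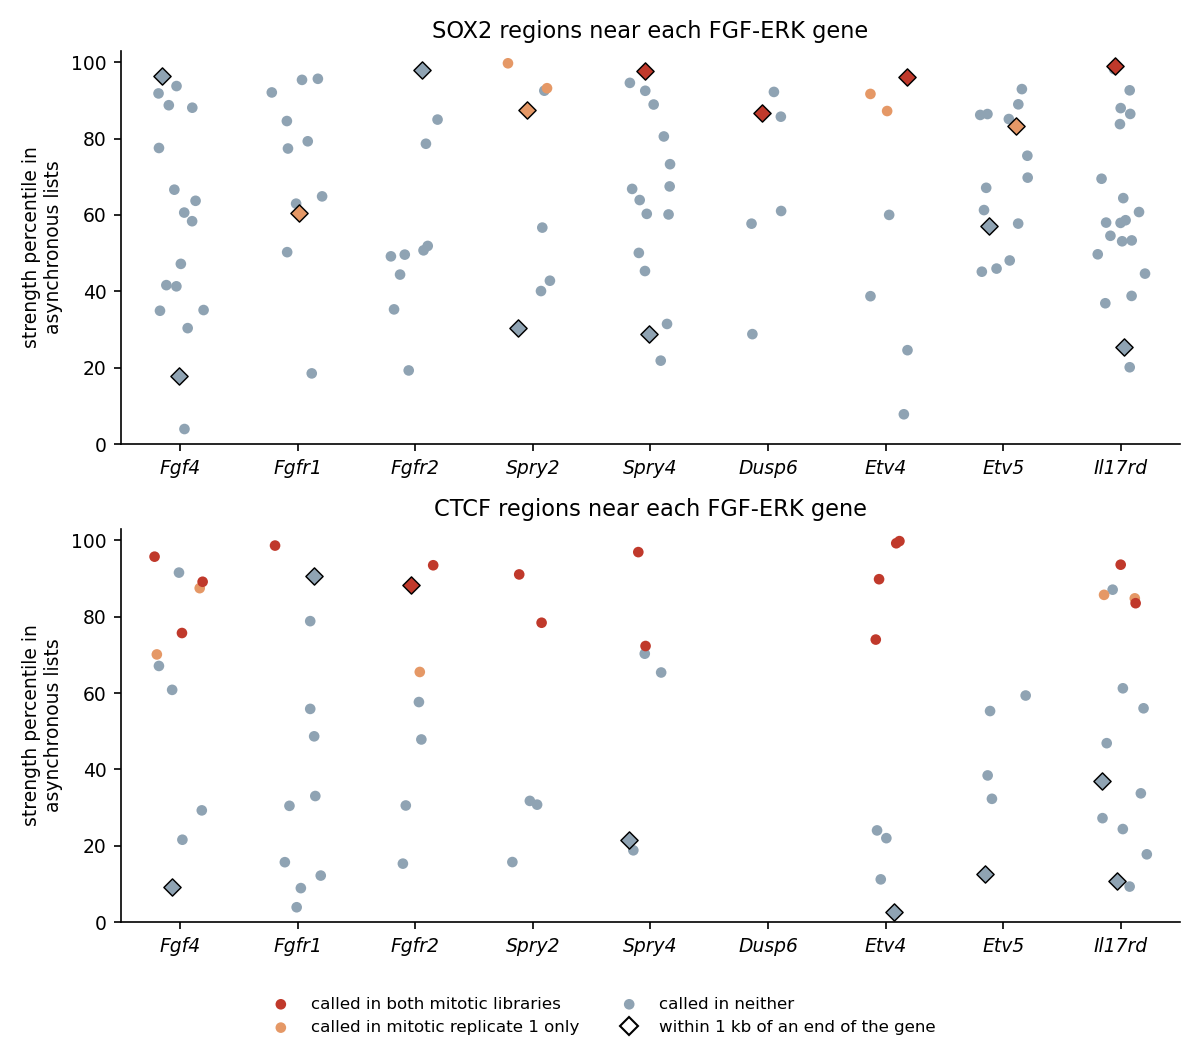
Strength of each SOX2 region (top) and CTCF region (bottom) by gene, as the percentile of its fold in the asynchronous lists, coloured by the mitotic libraries that called it, with diamonds for regions within 1 kb of an end of the gene. Called SOX2 regions are at 60.6 or higher and mostly diamonds, while called CTCF regions are mostly circles away from the gene ends, and Dusp6 has no CTCF region.

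An end of the FGF-ERK gene was within 1 kb of all 4 SOX2 regions that both mitotic libraries called, and of 7 of the 11 that replicate 1 called (63.6%). Over all SOX2 regions called in both, an end of a protein-coding gene was within 1 kb of 169 of 349 (48.4%). For those called in replicate 1 it was 996 of 1740 (57.2%). These background shares take an end of any gene. The 63.6% leaves out ends of neighbouring genes, such as the end at the Etv4 region next to Dhx8, so it is not a like measure. By the wider measure 23 of the 112 SOX2 regions (20.5%) lay at a gene end, against 18.1% of all SOX2 regions. Of the 14 SOX2 regions at an end of the FGF-ERK gene itself, 4 were called in both. Among the 9360 SOX2 regions at an end of any protein-coding gene, 1.81% were. Replicate 1 called 7 of the 14, against 10.6% of the 9360. The 14 leave out ends of neighbouring genes, so these are again unlike measures. By the wider measure both libraries called the same 4 of the 23. Replicate 1 called those 7 of the 23 and the region next to Dhx8. Inside the genes and away from their ends, replicate 1 called 1 of 36 regions, against 1.59% of all SOX2 regions so placed at any protein-coding gene, and both libraries called 0, against 0.363%. Beyond the ends, replicate 1 called 3 of 62, against 1.9% of all regions outside genes, and both called 0, against 0.48%. Those shares are for regions outside every protein-coding gene and away from gene ends, while some of the 62 lay at ends of other genes. At those rates a count of 0 is near the background. Regions at the ends were also stronger, at a median percentile of 85.0, where the regions inside had 61.5 and those beyond 60.9. The part of strength in the count at gene ends was not tested. A region's strength belongs to its highest summit, and in 7 of the 14 that summit lay within 1 kb of the end in both asynchronous lists. Of these 7, both mitotic libraries called 2, at Spry4 and Il17rd. Over all SOX2 regions with such summits at an end of any protein-coding gene it was 1.67%. The count of 4 was 3 when mitotic summits, not intervals, had to lie within 1 kb. It was 7 without mitotic replicate 2, where a call in replicate 1 alone is enough.

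By gene, 4 of the 9 (Spry4, Dusp6, Etv4 and Il17rd) had a SOX2 region called in both mitotic libraries, against 4.28% of the 18766 protein-coding genes with a SOX2 region within 50 kb. Spry2, Fgfr1 and Etv5 had regions called in replicate 1 alone, which makes 7 of 9 with a call in at least 1 library, against 20.5% of genes. Fgf4 and Fgfr2 had none. The 9 genes also had more SOX2 regions than most, 6 to 21 each with a median of 11, against a median of 5 over genes with a region. Their part in the count of genes was not tested.

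**Figure D3:**
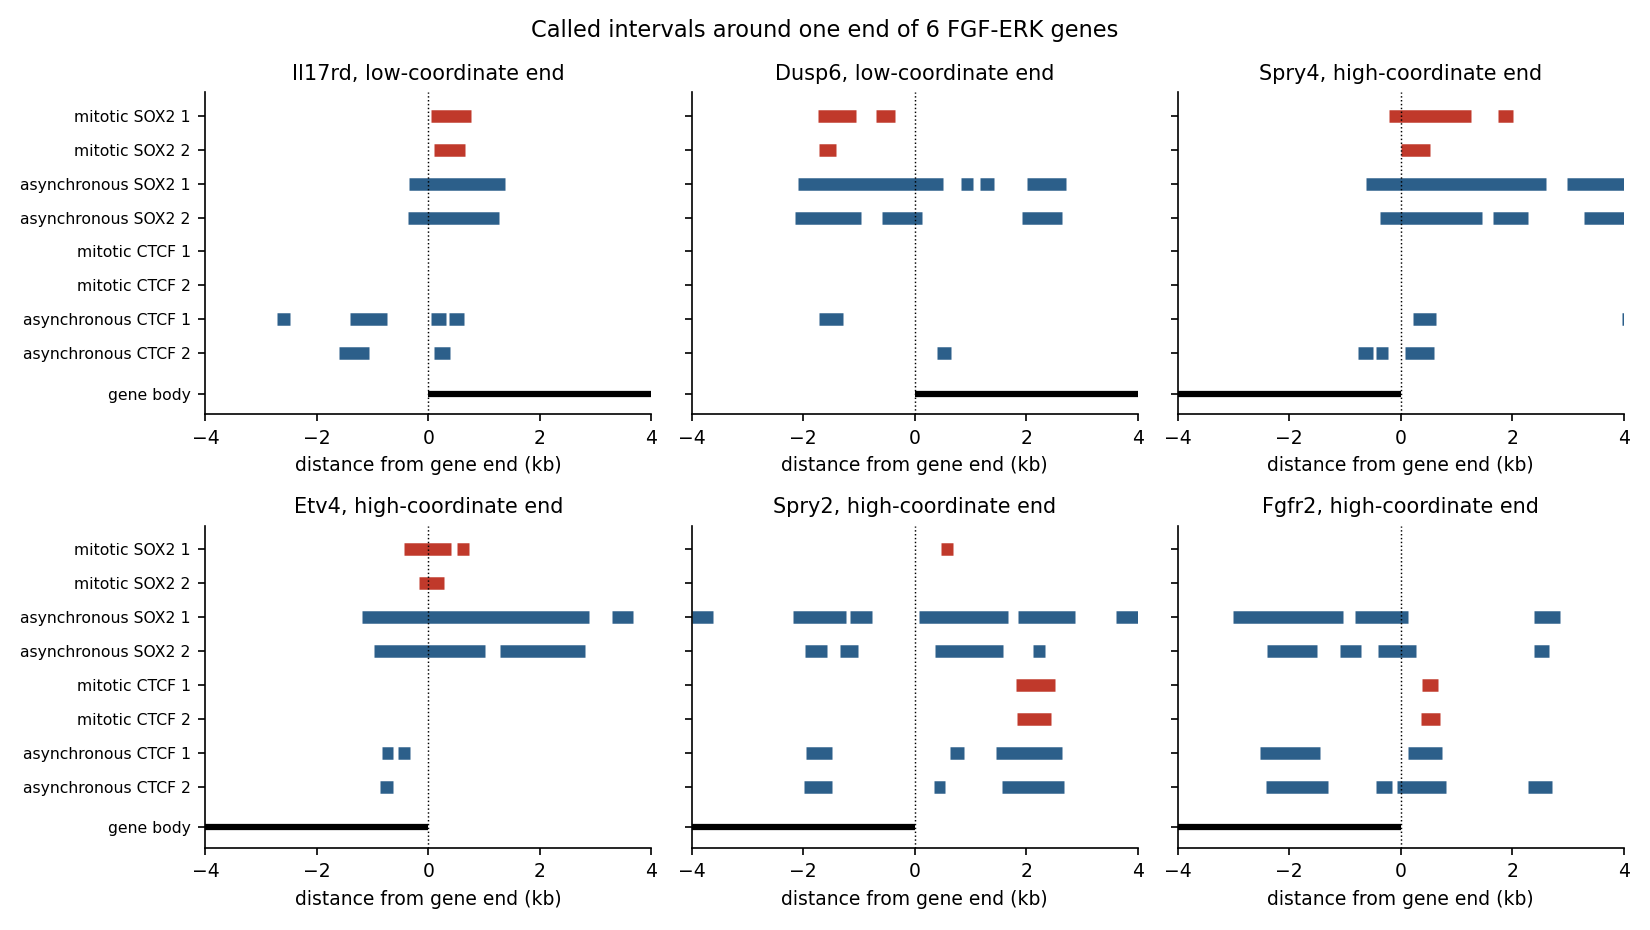
Called intervals around an end of 6 genes (dotted line at 0), with distance in kb along the horizontal axis, 1 row per library, mitotic in red, asynchronous in blue and the gene body in black. Il17rd, Dusp6, Spry4 and Etv4 carry mitotic SOX2 intervals in both replicates and no mitotic CTCF interval. Of mitotic intervals, Spry2 carries 1 of SOX2 beside those of CTCF, and Fgfr2 carries those of CTCF only.

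The ligand gene Fgf4 (chromosome 7, 144861386 to 144865245) had no mitotic SOX2 interval in either library, against 21 and 22 in asynchronous cells. It stood among the genes with the most SOX2 regions, with 18 within 50 kb, which put it at percentile 98.9 of genes with a region. The strongest covers the 3′ end of the gene (144863648 to 144865468), where a well known enhancer of Fgf4 bound by SOX2 and OCT4 lies. Its deposited folds were 18.2 and 16.4 in the asynchronous lists, from 183 and 100 reads at the summit, which put it at strength percentile 96.4. It was called in neither mitotic library. A weak SOX2 region at the start of the gene (percentile 17.7) and a second strong one 2.19 kb upstream (93.8) were called in neither as well. Only 5 of the 18 regions had Fgf4 as their nearest protein-coding gene, and Fgf3 and Fgf15 share the window.

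CTCF was called near Fgf4 in mitosis, with 7 and 4 mitotic intervals against 13 and 14 asynchronous ones. Of the 7, 5 had their summit 29.2 kb or more from the gene, on the side of Fgf15, and so had all 4 of replicate 2. Both mitotic libraries called 3 of its 11 CTCF regions. Of these, 1 lay 28.9 kb from the gene (144894184 to 144895056, folds 13.1 and 10.6, percentile 89.1) and another 40.1 kb from it (144905389 to 144906486, folds 8.85 and 9.14, percentile 75.7). The strongest lay at 144906557 to 144908595 (asynchronous folds 12.6 and 24.3, percentile 95.7). A SOX2 region of percentile 88.7 overlaps it and was called in neither mitotic library. A CTCF region of similar strength 22.2 kb from Fgf4 (144887481 to 144888431, folds 11.7 and 13.4, percentile 91.5) was also called in neither.

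The receptor gene Fgfr1 (chromosome 8, 25518759 to 25575718) had 1 and 0 mitotic SOX2 intervals, against 26 and 14 asynchronous ones. The single interval (25519005 to 25519434, fold 4.11, 33 reads at the summit) lay at the low-coordinate end of the gene, its summit 0.547 kb inside. The region there was modest in asynchronous cells, with folds of 6.80 and 4.12 and a percentile of 60.6, the lowest of the 11 SOX2 regions called in mitosis. The strongest SOX2 regions of Fgfr1 were a pair inside the gene (25544533 to 25545847 and 25547276 to 25548803, percentiles 95.7 and 95.4), and neither was called in mitosis. CTCF had 1 interval in each mitotic library, against 14 and 13 in asynchronous cells. Both belong to the strongest CTCF region, 21.97 kb beyond the gene next to Letm2 (25597687 to 25599642, asynchronous folds 17.9 and 18.1, percentile 98.6), where the mitotic folds were 11.4 and 9.47. The CTCF region at the high-coordinate end of Fgfr1 had asynchronous folds of 15.6 and 10.4 (percentile 90.5) and was called in neither mitotic library.

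Fgfr2 (chromosome 7, 130162451 to 130266808), whose receptor is known for its role in primitive endoderm, had no mitotic SOX2 interval, against 15 in each asynchronous library. A broad SOX2 region (130263804 to 130267080) with folds of 25.9 and 18.4, strength percentile 97.99, reaches its start, but those summits lay 2030 and 2012 bp inside the gene. The asynchronous intervals at the start itself were weak, with a fold of 3.14 in replicate 1 and folds of 2.59 and 4.43 in replicate 2. Neither mitotic library called the region. CTCF overlaps it at the start (130266743 to 130267624, folds 13.4 and 10.2, percentile 88.4), and that CTCF region was called in both mitotic libraries, with folds of 4.02 and 4.54. It was the only 1 of the 8 CTCF regions at an end of an FGF-ERK gene that both mitotic libraries called. They called 26.5% of CTCF regions at gene ends in general. Replicate 1 called no other of the 8, against 37.7% in general. The 8 had a median strength percentile of 17.01, and the part of strength in this count was not tested. The strongest CTCF region of Fgfr2, 6.26 kb beyond the start (130273068 to 130273789, folds 12.7 and 13.6, percentile 93.5), was also called by both. In all, CTCF had 3 and 2 mitotic intervals near Fgfr2, against 7 and 9 asynchronous ones.

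Among the feedback inhibitors, Il17rd (chromosome 14, 27038964 to 27107286) had the strongest SOX2 interval of the set in mitosis. Each mitotic library called 1 interval, against 28 in each asynchronous library. The mitotic intervals (27039017 to 27039721 and 27039069 to 27039615) had folds of 12.6 and 9.21, from 81 and 44 reads at the summit over local backgrounds of 5.52 and 3.89 reads. Within their own mitotic lists these folds ranked at percentiles 99.6 and 95.8. Their summits lay 0.471 and 0.408 kb inside the low-coordinate end, which is the 5′ end, and within 53 bp of the asynchronous summits. The same region (27038589 to 27040328) was the strongest of the gene in asynchronous cells, with folds of 23.6 and 32.4, while a weak CTCF region in it (percentile 10.7) was called in neither mitotic library. A second SOX2 region inside the gene (27067617 to 27069207) was almost as strong, with folds of 24.1 and 20.1 and a percentile of 98.2, but neither mitotic library called it. Il17rd had 21 SOX2 regions in all, of which 20 were called in neither. CTCF had 4 and 2 mitotic intervals, against 18 in each asynchronous library. In mitosis, both libraries called 2 CTCF regions upstream of the gene, 15.4 kb away (27022814 to 27023603, percentile 93.6) and 6.86 kb away (27030959 to 27032101, percentile 83.5).

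Dusp6 (chromosome 10, 99263231 to 99267489), the gene of the ERK phosphatase, had 2 and 1 mitotic SOX2 intervals, against 11 and 9 in asynchronous cells. The intervals called by both mitotic libraries (99261502 to 99262184 and 99261519 to 99261823) had folds of 6.80 and 8.36 from 43 and 37 reads, with summits 1.49 and 1.56 kb upstream of the start. Replicate 1 also called a weaker interval with its summit 0.619 kb upstream (fold 3.62, 29 reads). All 3 fall in 1 asynchronous region that runs across the start (99261093 to 99263735, folds 10.999 and 8.07, percentile 86.8). In asynchronous replicate 2 that region consisted of a far interval with its summit 6 bp from the one of mitotic replicate 1 and a near interval at the start. The summits near the start, shown in the promoter sequence above, had no mitotic interval over them, although the one of asynchronous replicate 1 was the summit of its whole region. The strongest SOX2 region of Dusp6 was inside the gene (99265158 to 99265939, percentile 92.2) and was called in neither. Dusp6 had no CTCF region, no mitotic CTCF interval and 1 weak CTCF interval in each asynchronous library, at different places.

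Spry4, a Sprouty gene on chromosome 18, had 2 and 1 mitotic SOX2 intervals, against 25 and 17 asynchronous ones. Each mitotic library called an interval at its high-coordinate end, with folds of 6.97 and 7.90 from 67 and 30 reads, and summits 0.216 and 0.174 kb from the end. This was the strongest SOX2 region of Spry4 in asynchronous cells, with folds of 21.01 and 19.9 and a percentile of 97.8. These mitotic summits lay within 65 bp of the asynchronous ones. The other interval of mitotic replicate 1, in the same region, had a fold of 4.63 from 29 reads and its summit 1.93 kb from the end, 1627 and 25 bp from the nearest asynchronous summits. The region also touches Arhgap26, the gene next to this end, so the end is shared. The next strongest SOX2 region, 11.6 kb from the other end (percentile 94.6), was called in neither. CTCF had 2 intervals in each mitotic library, against 6 and 9 in asynchronous cells, and the regions called in both lay 4.92 kb (percentile 96.9) and 10.0 kb (percentile 72.3) beyond the low-coordinate end.

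Spry2 (chromosome 14, 105891947 to 105896819), the other Sprouty gene, had 4 and 0 mitotic SOX2 intervals, against 15 and 11 asynchronous ones, the widest gap between the mitotic replicates among the 9 genes. Its distal region 23.1 kb beyond the 5′ end (105919900 to 105921858) was the strongest SOX2 region of all 9 genes, with folds of 33.6 and 33.4 and a percentile of 99.7. Mitotic replicate 1 called 2 intervals in it, with folds of 4.33 and 3.40 from 27 and 21 reads, and replicate 2 called none. At the promoter (105896898 to 105898500, percentile 87.4) replicate 1 called an interval (105897300 to 105897514) with a fold of 3.02 from 24 reads, the lowest fold of the 15. Its summit lay 0.593 kb upstream of the start and so outside the sequence shown above. CTCF was more regular, with 2 intervals in each mitotic library, against 8 and 6 in asynchronous cells. The CTCF region 1.46 kb upstream (105898280 to 105899500, percentile 91.1) overlaps the promoter SOX2 region and had mitotic folds of 11.9 and 9.12. The other CTCF region called in both lay 5.91 kb upstream (105902729 to 105903530, percentile 78.4).

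Etv4 (chromosome 11, 101769747 to 101785310), which encodes an ETS factor downstream of ERK, had 4 and 1 mitotic SOX2 intervals, against 11 and 9 asynchronous ones. Both mitotic libraries called SOX2 at its high-coordinate end (101784871 to 101785714 and 101785144 to 101785595), with folds of 7.83 and 4.58 from 56 and 33 reads. The mitotic summits were 14 and 25 bp from the annotated end of the gene. The asynchronous region around them (101784114 to 101788191, folds 19.7 and 14.9, percentile 96.1) had its highest summits elsewhere, 2363 and 2392 bp from the summit of mitotic replicate 1. A lesser asynchronous interval of replicate 2, with a fold of 9.07, had its summit 3 bp from that mitotic summit. At Etv4 the mitotic intervals thus covered the weaker summit of asynchronous replicate 2. At Dusp6 they covered the slightly stronger one of that replicate (folds 8.07 and 7.86) but not the summit of replicate 1, and at Il17rd and Spry4 they covered the strongest of both.

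Replicate 1 also called a SOX2 interval inside Etv4 (region 101771936 to 101773216, percentile 91.7) and another 36.2 kb away next to Dhx8. The interval next to Dhx8 was the only mitotic SOX2 interval of the 15 and 4 that overlapped a mitotic CTCF interval. That overlap was not counted over the whole mitotic lists, so it cannot be set against a background. CTCF was strong at Etv4, with 4 and 5 mitotic intervals against 10 in each asynchronous library. Both mitotic libraries called its 2 strongest regions, at 101819313 to 101820683 (folds 28.2 and 29.5, percentile 99.8) and next to Dhx8 (101732208 to 101733149, percentile 99.2). In mitosis the folds were 11.6 and 10.7 at the first and 14.9 and 13.1 next to Dhx8. Both also called a CTCF region 27.6 kb beyond the high-coordinate end (101812888 to 101815775, percentile 89.8) and another 5.34 kb beyond the low-coordinate end (101763624 to 101764412, percentile 74.0).

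Etv5 (chromosome 16, 22381313 to 22439570), the other ETS factor gene, had 1 and 0 mitotic SOX2 intervals, against 24 and 20 asynchronous ones. The interval of mitotic replicate 1 (22438411 to 22438888, fold 4.61, 33 reads) had its summit 175 bases before the second start, inside the sequence shown above. It lay 57 and 18 bp from the asynchronous summits, in a region with asynchronous folds of 13.4 and 6.25 and a percentile of 83.3. Of all promoter windows in the genome, 1.95% were touched by an interval of mitotic SOX2 replicate 1. The strongest SOX2 region of Etv5, 2.23 kb upstream of the outer start (22441802 to 22442885, percentile 93.0), was called in neither. Etv5 had no mitotic CTCF interval, against 6 and 7 in asynchronous cells, and its strongest CTCF region reached a percentile of only 59.4.

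Mitotic summits near these genes were placed against the asynchronous summits in the same way for every interval. Of the SOX2 intervals, 6 of 15 and 2 of 4 had their summit within 100 bp of a summit in both asynchronous lists, against 47.7% and 70.3% of all intervals of those mitotic lists. Of the CTCF intervals, 20 of 23 and 16 of 18 did, against 89.1% and 90.6%. The mitotic SOX2 intervals rested on 21 to 81 reads at the summit in replicate 1 (median 29) and 30 to 44 in replicate 2 (median 35). Asynchronous SOX2 intervals near the genes had 15 to 261 (median 34) and 13 to 208 (median 27), so the medians were similar and the highest values were asynchronous.

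CTCF intervals near the 9 genes were also fewer in mitosis. The mitotic CTCF libraries had 23 and 18 intervals, against 83 and 87 in the asynchronous libraries. The mean was 20.5 ± 3.54 in mitotic cells and 85 ± 2.83 in asynchronous cells (SD, n = 2 each), or 4.15-fold fewer, with a ratio of 0.241 beside 0.260 over the whole lists. The groups did not overlap, and the two-sided exact permutation test gave p = 0.333, the smallest it can give. Of the 68 CTCF regions, mitotic replicate 1 called 21 (30.9%, Wilson interval 21.2 to 42.6), where it called 33% of all CTCF regions. Replicate 2 called 16 (23.5%, 15.0 to 34.9), where it called 25.4% of all. All 16 were called in both, against 24.5% of all CTCF regions, and 21 in at least 1 library, against 34%. The shares near the FGF-ERK genes were thus close to the background for CTCF.

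Both mitotic libraries called 15 of the 47 CTCF regions beyond the ends of the FGF-ERK gene. They called 26.9% of all CTCF regions outside every protein-coding gene and away from gene ends. These sets are unlike, since some of the 47 lay at ends of other genes. Both libraries called 0 of the 13 inside the genes, against 21.6% of all inside genes, and 1 of the 8 at an end, as given above. An end of the FGF-ERK gene itself was thus near 1 of the 16 called in both (6.25%). An end of any protein-coding gene, a wider measure, was near 15.5% of all CTCF regions so called. By that measure the regions next to Letm2 and next to Dhx8, called in both, were also at an end. The shares of 6.25% and 15.5% are therefore not comparable. The median strength was at percentile 90.4 for the 16 and at 30.8 for the 47 called in neither. By place, the median percentile was 33.04 for the 13 inside, 17.01 for the 8 at an end and 61.25 for the 47 beyond the ends. The part of strength in the counts by place was not tested. At the 90th percentile or above were 10 CTCF regions (14.7% of the 68), against 8.90% of all CTCF regions. Both libraries called 8 of these 10, where they called 81.2% of all such CTCF regions. No further 1 was called in either, where 90.9% of all were called in at least 1. All genes but Etv5 and Dusp6 had a CTCF region called in both mitotic libraries, 7 of the 8 with a region, against 72.5% of the 19195 protein-coding genes with a CTCF region.

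The share of regions called in mitosis was higher for CTCF than for SOX2 near these genes. It was 30.9% and 23.5% in the mitotic CTCF libraries and 9.82% and 3.57% in the mitotic SOX2 libraries, a difference of 20.5 percentage points. The libraries of the factors did not overlap, and the two-sided exact permutation test over the 4 mitotic libraries gave p = 0.333, the smallest it allows. Since each factor has its own antibody, this compares how well sites were detected. The CTCF libraries were also deeper, at 3.62 and 3.77 against 2.62 and 1.64 per 100 bp for SOX2, and the part of depth was not tested. By gene the order was not uniform. Etv5 had 0 of 5 CTCF regions called, beside 1 of 15 SOX2 regions in replicate 1, and at Fgfr1 replicate 1 called 1 of 11 regions of either factor.

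**Figure D4:**
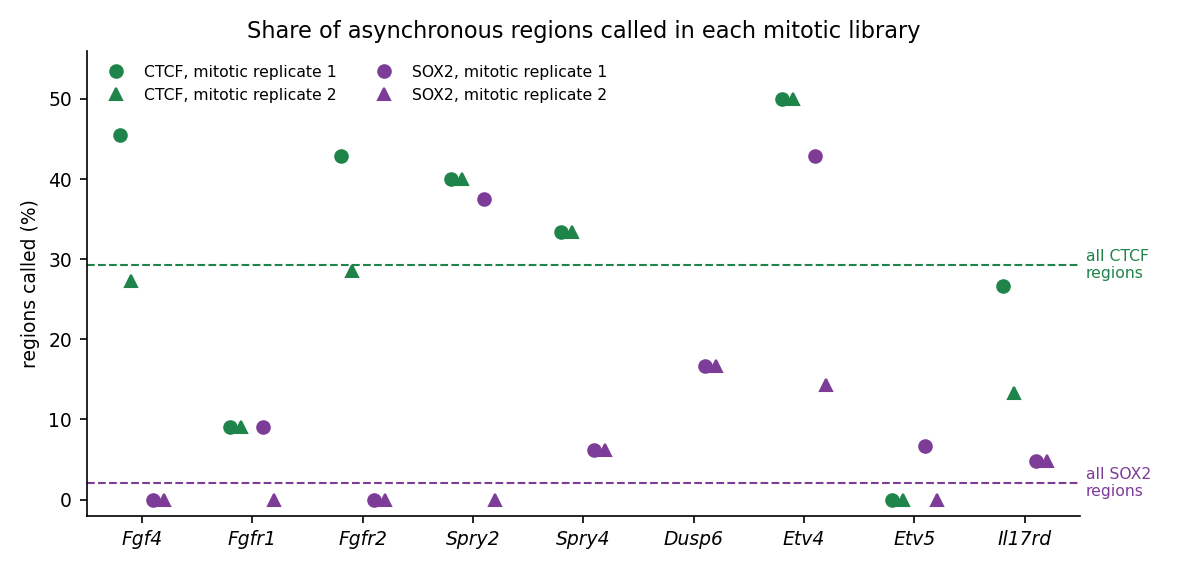
Share of the regions near each gene that each mitotic library called, in percent, with CTCF in green left of SOX2 in purple and dashed lines for the mean share over all regions of each factor. CTCF points range from 0 at Etv5 to 50 at Etv4, SOX2 points from 0 to 42.9, and Dusp6 has no CTCF point because it has no CTCF region.

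SOX2 and CTCF regions shared ground near these genes. Of the 68 CTCF regions 31 (45.6%) overlapped a SOX2 region, against 18.3% of all CTCF regions, and 30 of the 112 SOX2 regions (26.8%) overlapped a CTCF region, against 20.3% of all. Both mitotic libraries called 3 of the 30 overlapping SOX2 regions, at Il17rd, Spry4 and Etv4, against 1.84% of all SOX2 regions that overlap CTCF. They called 1 of the other 82, at Dusp6, against 0.379% of those without CTCF. The CTCF regions in those 3 had percentiles of 10.7, 21.5 and 2.54 and were called in neither mitotic library. For CTCF, both libraries called 10 of the 31 overlapping regions, against 31.1% of all that overlap SOX2, and 6 of the other 37, against 23% of those without. At none of the 9 genes did a SOX2 region called by both mitotic SOX2 libraries overlap a CTCF region called by both mitotic CTCF libraries. The same count over all SOX2 regions was not made, so this is not shown to be particular to these genes.

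A wider list of 47 genes of the pathway, from other FGF ligands and receptors through adaptors, RAS, RAF, MEK and ERK kinases to further inhibitors and targets, was matched in full, and 46 had a region of each factor. A SOX2 region was called in both mitotic libraries at 5 of the 46 (10.9%), against 4.28% of genes, and in at least 1 library at 15 (32.6%), against 20.5%. Among them were Frs2, the docking protein of FGF receptors, Nf1, which encodes a RAS inhibitor, the ETS gene Etv1 and the immediate early gene Ier3. The median number of SOX2 regions was 7.5 per gene of this list and 11 per gene of the 9. For CTCF, 33 of the 46 (71.7%) had a region called in both, against 72.5% of genes. The genes of the list whose numbers of intervals over the 8 libraries were nearest to the members' median profile (1, 0, 21 and 15 for SOX2 and 2, 2, 8 and 9 for CTCF, mitotic before asynchronous) were Gab1, Spred3 and Shc1, at Euclidean distances of 0.354, 0.919 and 1.06 on the log2(number + 1) scale. Gab1, an adaptor of receptor tyrosine kinases, had 1 and 0 mitotic SOX2 intervals, against 24 and 16 asynchronous ones.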

How the data were processed

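Each library has its own narrowPeak file from the authors, with no pooled list. MACS2 2.1.1.20160309, BWA 0.7.17, CASAVA 1.4 and SAMtools are named with mm10, per the submitters' processing notes, without options or control libraries. The deposited fold is a ratio of summit coverage to a local background. The deposited −log10 p and −log10 q columns describe that summit too, and the deposited score column was not used. The lowest −log10 q was 1.31 to 1.48 per list, a q threshold of 0.05. Folds rank or describe peaks within their own list only. Lists held 1976 and 408 peaks for mitotic SOX2, 90266 and 63504 for asynchronous SOX2, 20142 and 15338 for mitotic CTCF, and 68328 and 67995 for asynchronous CTCF.

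Gene bodies came from RefSeq genes on GRCm38.p6, with no exons used. Reads at a summit were solved from fold and −log10 p under MACS2's Poisson model with a pseudocount of 1, within 0.002 in −log10 p, in 547 of 551 intervals. In up to 1000 peaks per list, 99.4% to 100% gave whole numbers. The relative depth is the lowest local background over the shortest peak, and it is the only depth read from the lists. The members and lists were chosen with earlier results of these data known. All 9 genes are named, with the strongest region per gene and factor and every region called in both mitotic libraries. Other named regions, the gene-end counts with their alternatives, and the summit distances were chosen after their values were seen. Of the wider list, the genes called in both mitotic SOX2 libraries, except 1 that is not reported here, and the 3 nearest profiles are named. Python 3.11.15, pandas 2.3.3, SciPy 1.17.1 and bedtools 2.31.1 were used. The overlap and coverage code was tested on simulated data, where overlap calls equalled those of bedtools.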

Additional observations from a re-analysis of the deposited data

How the results depend on the processing

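No direction reversed under any alternative: a −log10 q or fold of at least 5, 50% overlap of the shorter interval, summits within 100 bp, gene distances of 10 and 100 kb, regions of either asynchronous library, each library left out, and libraries compared by replicate number. With peaks of fold 5 or more, 4 genes had a CTCF region called in both mitotic libraries, not 7. For SOX2 it was 3 genes and 3 regions at gene ends, not 4 and 4. Gene distances of 10 and 100 kb gave 5 and 9 genes with such a CTCF region. With regions of either asynchronous library the CTCF share was 19.6%, not 27.2%. Leaving out each library gave ratios of 0.0249 to 0.0935 for SOX2 and 0.212 to 0.271 for CTCF intervals. It gave shares of 22.4% to 30.9% for CTCF and 3.57% to 9.82% for SOX2, and differences of 15.7 to 24.2 points. It gave 4 to 7 genes with a SOX2 call and 7 with a CTCF call throughout, and 4 to 7 SOX2 regions at gene ends. Each 7 for SOX2 came without mitotic SOX2 replicate 2. With a mitotic library left out, a call in the remaining library is enough, a looser rule than a call in both. With the highest asynchronous summits within 1 kb of the end, a setting chosen after seeing the data, 2 regions were counted, not 4. As a replicate block, libraries paired by number gave ratios of 0.0564 for SOX2 and 0.242 for CTCF, shares of 23.0% for CTCF and 4.50% for SOX2, a difference of 18.5 points, and 4 and 7 genes, so it changed no call. The labels do not say whether equal numbers pair the libraries. Over 21887 genes the deviations of equal numbers correlated at 0.0188 for SOX2 and −0.0149 for CTCF. Such a correlation of peak numbers cannot show whether libraries were prepared together. Per gene, 57 of 221 recomputed shares moved by more than the replicate spread, but 52 of the 57 belong to genes whose replicates had equal shares, where any change counts. With 2 libraries per group no test here can pass 0.05, and sites below the reach of a list's depth count as not called.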
